A study of Mus musculus with 6 samples.

Results

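The small leucine-rich proteoglycans are secreted matrix proteins built from leucine-rich repeats. Here 8 of them were followed by symbol through single-cell RNA sequencing of the fetal mouse intestine: Dcn (decorin), Lum (lumican), Ogn (osteoglycin), Aspn (asporin), Bgn (biglycan), Fmod (fibromodulin), Prelp and Omd (osteomodulin). All 8 were found among the 24568 gene symbols of the deposited count matrix. The mice were of strain C57/BL6 and carried Pdgfra-H2BGFP, a reporter in which Pdgfra regulatory sequence drives a nuclear green fluorescent protein, so that cells with a strong signal can be sorted. The small intestine was cut into segments of 2.5 mm, and segments of pooled replicates carried a lipid barcode: the youngest stage, E13.5, had 4 replicates, E14.5 followed with 3, and the stages E15.5, E16.5 and E18.5 had 2 apiece. The labels list 6 samples in 4 groups. E15.5 cells together with E16.5 cells filled 2 lanes of all live cells (negative for DAPI and the red cell marker Ter119) and 1 lane of enriched cells. Another 2 lanes of live cells and 1 of enriched cells came from E13.5 with E14.5 and E18.5. Enriched cells were positive for CD31, CD45 or Epcam or were high in PDGFRA-GFP.

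Many proteins of this family, though not all, carry sugar chains on a protein core that binds collagen fibrils, and they limit the width and spacing of the fibrils. Decorin, biglycan and asporin also bind growth factors of the TGF-beta family. In the gut wall they are made by the mesenchyme, where cells with high PDGFRA lie beneath the epithelium and signal to it, while cells with less PDGFRA fill the deeper layers.

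The matrix pools all samples, and its cells carry no label of their sample, stage or segment. Its barcodes carry 6 suffixes, which form 6 technical sets. Suffixes -1, -2 and -3 with the ending _1 are called A1, A2 and A3, and those with the ending _2 are called B1, B2 and B3. This layout is that of the sample list, but nothing states that the sets are the samples. All cells therefore count as 1 sample. Without replicates the comparisons carry no test, and the brackets below are 95% intervals for counting error alone (exact Poisson for levels, Clopper-Pearson for shares, conditional binomial for ratios). Of 13127 cells, 12688 were kept, between 1185 and 2518 a set. Median depth was 7073 to 13588 UMIs (unique molecular identifiers, 1 for each captured transcript) in the A sets and 3553 to 4189.5 in the B sets. Sets A3 and B3 stood apart from their neighbours: Pdgfra was at 943 and 409 CPM (UMIs per 1000000 UMIs) there against 106 to 173 CPM in the other 4 sets, and 20.8% and 9.32% of cells held a UMI of the cycling genes Mki67 or Top2a at matched depth, against 30.6% to 45.3%. Markers of epithelium, endothelium and immune cells, 6 genes each, were low in all sets but highest in A3 and B3. Epithelium markers summed to 36.3 to 44.3 CPM in the other 4 sets and to 313 and 98.0 CPM in A3 and B3. Endothelium markers summed to 23.6 to 31.6 CPM against 77.7 and 70.7 CPM, and immune markers to 11.9 to 35.9 CPM against 91.1 and 76.9 CPM. The 6 glia markers summed to 208 to 427 CPM in the other 4 sets and to 1790 and 1678 CPM in A3 and B3. Of these sums, Ednrb alone gave 1779 and 1672 CPM in A3 and B3, while Sox10, which defines glia, stayed between 1.81 and 2.85 CPM in every comparison of sets. Col1a1, a collagen gene of mesenchyme, was found in 85.2% to 99.8% of cells of a set. Red cell genes summed to 3137 CPM in B3 and to 1535 and 1506 CPM in B1 and B2. Between sets, 22 barcodes recurred, 1 of them within ending A and 2 within ending B.

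The family lies in clusters of neighbouring genes. In GRCm38, Dcn (chr10:97479609-97518143) and Lum (chr10:97565128-97572703) stand side by side on the plus strand, followed by the relatives Kera and Epyc. Aspn (chr13:49544443-49567565), Omd (chr13:49582462-49592822) and Ogn (chr13:49608046-49624501) follow Ecm2 on the plus strand with no other protein-coding gene between them. Prelp (chr1:133910304-133921414, minus strand) and Fmod (chr1:134037254-134048277, plus strand) are neighbours, and Bgn (chrX:73483602-73495933, plus strand) has no member beside it.

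Upstream sequence was at hand for 6 of the 8 members (RefSeq, GRCm38.p6). It is shown for the trio on chromosome 13, in which Ogn and Aspn had like patterns in the values below while Omd, which lies between them, stayed near 0, and for Bgn, whose pattern differed. Each line gives the 200 bases before the RefSeq start, 5′ to 3′ on the plus strand (Ogn chr13:49607815-49608014, Aspn chr13:49544243-49544442, Omd chr13:49582262-49582461, Bgn chrX:73483401-73483600), and capitals mark any match on either strand to TATAAA (the TATA box), to GGGCGG (the GC box), to CACGTG (an E-box) or to TGACTCA (an AP-1 site).
Ogn: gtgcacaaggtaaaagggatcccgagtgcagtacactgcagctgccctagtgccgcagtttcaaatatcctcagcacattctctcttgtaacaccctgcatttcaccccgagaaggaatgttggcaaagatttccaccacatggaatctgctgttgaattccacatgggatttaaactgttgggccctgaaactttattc
Aspn: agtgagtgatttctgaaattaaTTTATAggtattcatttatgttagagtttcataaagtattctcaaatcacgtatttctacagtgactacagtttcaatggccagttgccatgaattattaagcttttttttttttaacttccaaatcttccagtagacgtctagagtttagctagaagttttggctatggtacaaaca
Omd: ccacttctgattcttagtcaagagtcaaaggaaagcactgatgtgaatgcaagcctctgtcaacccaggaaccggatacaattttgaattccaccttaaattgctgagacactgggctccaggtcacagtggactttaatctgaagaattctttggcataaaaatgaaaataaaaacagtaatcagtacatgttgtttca
Bgn: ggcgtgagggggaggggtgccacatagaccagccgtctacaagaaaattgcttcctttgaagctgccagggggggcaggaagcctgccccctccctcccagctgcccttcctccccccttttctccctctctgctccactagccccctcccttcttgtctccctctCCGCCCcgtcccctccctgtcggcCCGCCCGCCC
The share of G and C is 47% in Ogn, 31% in Aspn and 39% in Omd, whereas Bgn has 67%. Over 32851 RefSeq promoters the same window has a median of 53%. Of these promoters, 28.9% lie below Ogn, 2.02% below Aspn and 9.78% below Omd, so Ogn is not unusual. Bgn held 3 matches to the GC box, 2 of them overlapping, and 31.0% of all promoters held at least 1. Aspn held 1 match to TATAAA, on the minus strand near the upstream end of the window, as did 9.96% of all promoters. Ogn and Omd held none of the 4 motifs, of which CACGTG occurred in 5.26% and TGACTCA in 3.66% of promoters. These matches describe letters and were not tied to any factor.

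Dcn was the leading member of the family in the 4 sets with less Pdgfra. It reached 747 CPM in A1, 722 CPM in A2, 727 CPM in B1 and 720 CPM in B2, but 141 CPM in A3 and 115 CPM in B3. The 4 higher sets lay between 720 and 747 CPM, and A3 and B3 lay far below them. Dcn is best known for binding collagen I. Because the assay counts transcript ends, levels of different genes need no correction for length.
Lum followed at 370 CPM in A1, 347 in A2, 452 in B1 and 435 in B2, with 148 CPM in A3 and 226 in B3. Lum is a keratan sulfate proteoglycan best known from the cornea, and it too was lowest in the third set of each ending.
Ogn, which shares the leucine-rich repeats and was first studied in bone, stood at 174, 173, 273 and 286 CPM in A1, A2, B1 and B2, and at 22.4 CPM in A3 and 9.67 CPM in B3. Aspn, a relative of decorin with a stretch of aspartate residues, stood at 71.2, 73.9, 113 and 113 CPM in the same 4 sets, and at 11.9 CPM in A3 and 7.86 CPM in B3. For both genes A3 and B3 lay below the other 4 sets with no overlap of intervals.
Bgn, the closest relative of decorin, went the other way. It was at 97.2 CPM in A1, 88.9 in A2, 110 in B1 and 109 in B2, and was highest in A3, at 220 CPM, and B3, at 150 CPM. Fmod, Prelp and Omd never exceeded 3.12, 2.42 and 0.885 CPM. Fmod, a keratan sulfate proteoglycan close to lumican, had 1 UMI in A3 and 3 in B3 against 84 and 59 UMIs in sets 1 and 2 of each ending, a log2 ratio of -3.72 [-9.04 to -1.20] in A and -2.93 [-5.24 to -1.31] in B. Prelp was higher in A3, at 2.34 CPM against 0.902 CPM in A1 and A2 (1.38 [0.59 to 2.12]), while its interval included 0 in B (0.37 [-0.48 to 1.18]). For Omd the interval included 0 in both endings. These 3 lay below the 20 CPM used for the counts that follow.
Summed over the family, the level was 1408 to 1681 CPM in the other 4 sets and 546 and 511 CPM in A3 and B3. Dcn made up 51.0% and 51.3% of family UMIs in A1 and A2 and 43.3% and 43.2% in B1 and B2. In A3 Bgn took 40.2% of the family's UMIs and Dcn 25.9%. In B3 the largest share was that of Lum, at 44.2%, followed by Bgn at 29.4%.

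**Figure D1:**
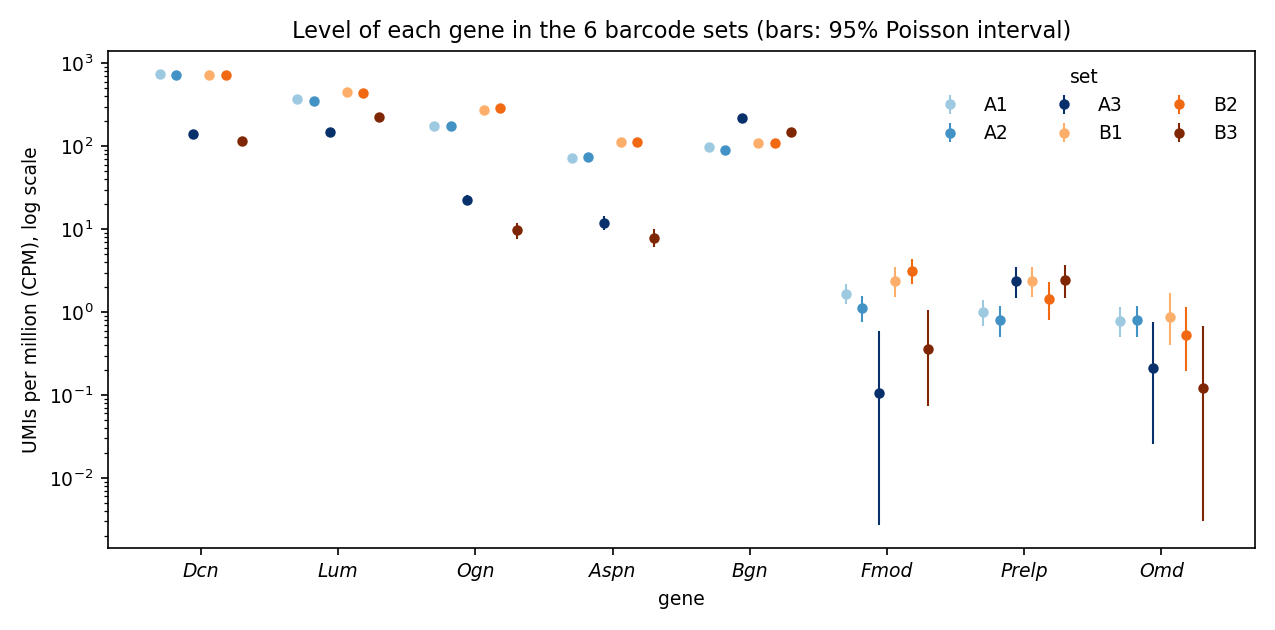
Level of the 8 genes (horizontal axis) in CPM on a log scale (vertical axis), 1 point for each barcode set with its 95% Poisson interval. Dcn, Lum, Ogn and Aspn are lowest in A3 and B3, Bgn is highest there, and Fmod, Prelp and Omd lie at or below 3.12 CPM in every set.

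Shares of cells gave the same picture once depth was matched. Each cell was thinned to 2000 UMIs, which left out 41 cells. Dcn was then found in 45.4% of cells in A1, 43.3% in A2, 50.4% in B1 and 49.8% in B2, against 13.3% in A3 and 12.2% in B3. The share for Lum was 48.2%, 44.9%, 50.8% and 49.2% in these 4 sets, 18.0% in A3 and 24.0% in B3. For Ogn it was 23.6%, 22.0%, 28.4% and 28.6%, then 2.28% in A3 and 1.00% in B3. For Aspn it was 10.5%, 12.1%, 16.0% and 16.3%, then 1.18% and 0.685%. Bgn was found in 18.7%, 15.9%, 19.8% and 19.1% of cells in the other 4 sets and in 35.3% and 26.3% in A3 and B3. Without thinning, Dcn was seen in 76.3% of A1 cells and 64.8% of B1 cells, while cells of the A sets were deeper and the CPM of A1 and B1 were close. Cells with Dcn held on average 4.33 UMIs of it in A1 and 2.83 in B1 at matched depth, and 30.3% and 33.4% of cells held at least 2 UMIs.

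Set 3 was then compared with sets 1 and 2 of the same ending. Of 5 members with at least 20 CPM on 1 side, 4 were at least 2-fold lower in A3, where 5.65% of 7421 genes were, and 1 was at least 2-fold higher, where 9.62% of genes were. In B3, 3 of 5 were at least 2-fold lower against 5.41% of 6416 genes, and none was 2-fold higher against 8.62%. The median log2 ratio of the 5 members was -2.38 in A and -2.66 in B, while that of all genes was -0.05 and 0.12.
Ogn had the most negative ratio in both endings, with a log2 ratio of -2.96 [-3.16 to -2.76] in A and -4.85 [-5.19 to -4.54] in B. Only 0.148% and 0.125% of all genes had a ratio as low. Aspn followed with -2.60 [-2.89 to -2.33] and -3.85 [-4.22 to -3.49], and Dcn with -2.38 [-2.46 to -2.30] and -2.66 [-2.75 to -2.56].
Lum was reduced least, by a log2 ratio of -1.28 [-1.36 to -1.20] in A and -0.97 [-1.04 to -0.90] in B, just short of 2-fold. The Bgn ratio was 1.24 [1.16 to 1.31] in A and 0.46 [0.36 to 0.56] in B. Thus Dcn and Bgn, close relatives, had ratios of opposite sign in both endings. Markers of smooth muscle moved with these genes, summing to 747 CPM in A3 against 1806 and 1874 CPM in A1 and A2, and to 343 CPM in B3 against 1396 and 1380 CPM, and 4 and 6 of 7 were at least 2-fold lower. PDGFRA-high markers moved the other way, with 8 of 9 in A3 and 7 of 9 in B3 at least 2-fold higher. Of epithelium markers, 4 of 4 tested in A3 and 3 of 3 tested in B3 were at least 2-fold higher. The 10 fibroblast markers summed to 457 CPM in A3 against 1213 and 1196 CPM, and to 208 CPM in B3 against 947 and 930 CPM, with Pi16 at 0 in B3. The part of these cell types in the ratios was not tested, and fewer cells of a type cannot be told apart from less RNA per cell in these sums.

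**Figure D2:**
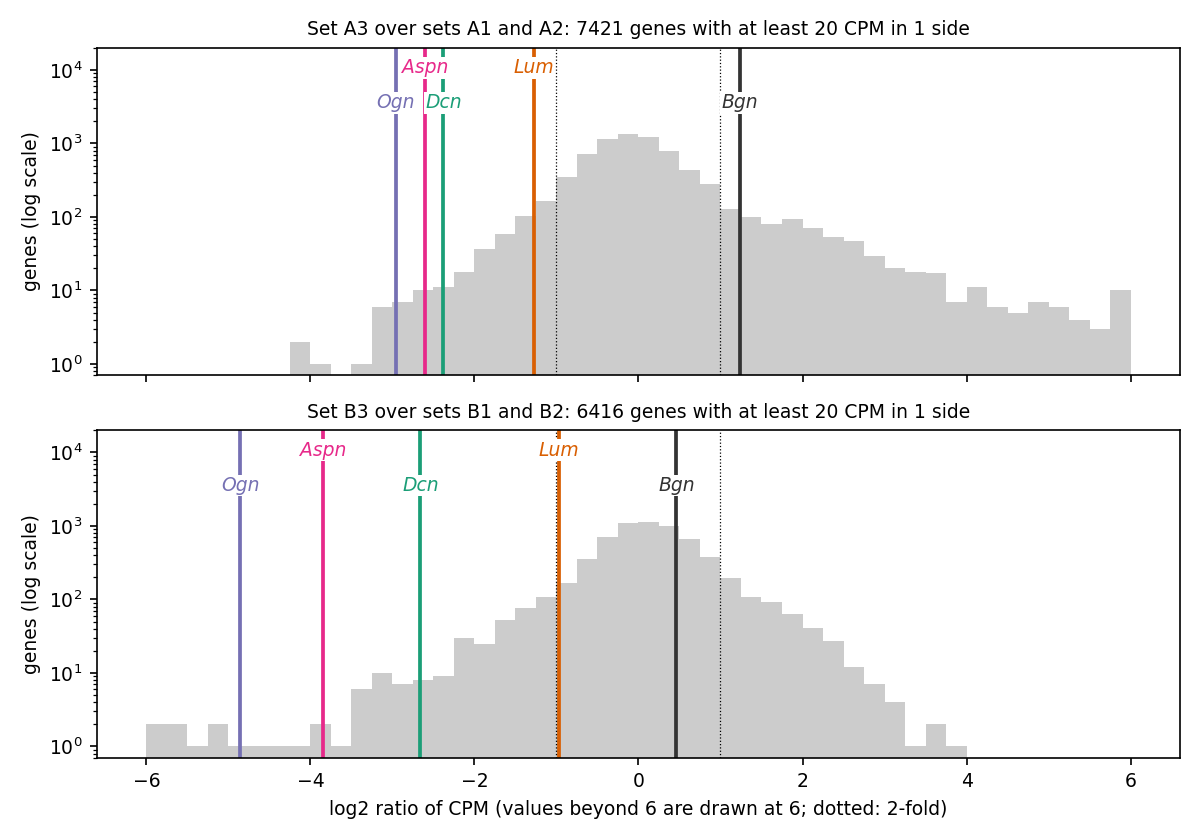
Number of genes (vertical axis, log scale) by log2 ratio of CPM of set 3 over sets 1 and 2 (horizontal axis) in ending A (top) and B (bottom), with coloured lines at the 5 members that had at least 20 CPM. Ogn, Aspn and Dcn lie in the left tail in both endings, at -2.38 or lower, and Bgn lies right of 0.

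Genes that work with these proteoglycans were counted against the same shares of all genes (5.65% lower and 9.62% higher in A, 5.41% and 8.62% in B). Of 22 tested genes for collagens and other fibril proteins, 4 were at least 2-fold lower and 6 higher in A3, and 10 lower and 3 higher in B3. Col12a1, a fibril-associated collagen, was higher, at 570 CPM in A3 against 85.0 CPM, and at 288 CPM in B3 against 88.5 CPM. Col14a1, a fibril-associated collagen of fibroblasts, was lower, at 116 CPM in A3 against 632 CPM and at 50.2 CPM in B3 against 494 CPM. The chief fibril collagen gene Col1a1 was at 650 CPM in A3 against 1599 CPM and at 833 CPM in B3 against 2632 CPM. Among 25 genes that build and sulfate the sugar chains, none of the 11 tested in A and 9 tested in B was 2-fold lower, and 2 were higher in each ending, so the count of lower genes is near the share over all genes. Of genes for TGF-beta, BMP and receptor partners, none of 16 and 15 tested was 2-fold lower, while 8 and 7 were higher. They were led by Bmp2, at 272 CPM in A3 against 14.5 CPM and 279 CPM in B3 against 56.2 CPM. Bmp2, Bmp4, Bmp5 and Bmp7 of this list are also PDGFRA-high markers, so the counts of both lists share genes. Of matrix proteases and their inhibitors, 1 of 10 was lower and 3 higher in A3, and 3 of 9 were lower and 2 higher in B3. The other 10 family genes looked at (Epyc, Kera, Optc, Ecm2, Chad, Chadl, Nyx, Tsku, Podn and Podnl1) were all in the matrix and none reached 20 CPM in any set. The highest were Podn in A3 and Tsku in B3, both at 17.0 CPM. Tsku was also at 15.3 CPM in B2, where Podn was at 1.25 CPM.

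Within a set, cells with 4 or more Pdgfra UMIs were compared with cells that had none. In A1 and A2 together, Dcn was at 303 CPM in the former (807 cells) and 1309 CPM in the latter (1165 cells), a log2 ratio of -2.11 [-2.16 to -2.06]. Aspn was at 24.8 CPM against 135 CPM, a ratio of -2.44. Ogn was at 106 CPM against 261 CPM (-1.30), Bgn at 60.6 CPM against 150 CPM (-1.31), and Lum at 294 CPM against 445 CPM (-0.60). At least 2-fold lower were 4 of the 5 members, against 1.36% of 6894 genes. Cells with 4 or more Pdgfra UMIs were deeper, with a median of 14224 UMIs against 10063 in A1 and 16019 against 11368 in A2. When the top 10% of cells by Pdgfra counts per UMI were taken instead, only Dcn (-1.34) and Aspn (-1.49) were 2-fold lower, with Ogn at -0.69, Bgn at -0.68 and Lum at -0.20. Between cells with 4 or more Pdgfra UMIs and cells with none, fibroblast markers summed to 912 CPM against 1571 CPM. Cycling markers summed to 1975 CPM against 1192 CPM. Of the PDGFRA-high markers, which include Pdgfra itself, 3 of 8 tested were at least 2-fold higher. The part of these markers was not tested.
In B1 and B2, only 71 cells had 4 or more Pdgfra UMIs. Dcn was at 76.5 CPM in them against 826 CPM in the 3238 cells with none, a log2 ratio of -3.43 [-4.11 to -2.83]. Ogn, with 6 UMIs in the 71 cells, was at 20.9 CPM against 324 CPM, Aspn, with 4 UMIs there, at 13.9 CPM against 130 CPM, and Lum at 157 CPM against 468 CPM. Bgn was at 129 CPM against 110 CPM, a ratio of 0.23 [-0.28 to 0.70] that includes 0. Here too 4 of 5 were 2-fold lower, against 8.24% of 6483 genes, with few UMIs behind each gene in 71 cells. With the 10% of cells richest in Pdgfra for their depth, 3 were 2-fold lower, with Dcn at -1.91, Ogn at -2.16, Aspn at -1.95 and Lum at -0.75. Fibroblast markers summed to 244 CPM against 1041 CPM and cycling markers to 609 CPM against 1272 CPM. Of the PDGFRA-high markers, 8 of 9 tested were at least 2-fold higher. The part of these markers was not tested, nor whether the cut takes like cells in both endings.
At the edge of the cut, Dcn in A1 and A2 was at 459 CPM in cells with 3 Pdgfra UMIs and 289 CPM in cells with 4, and Lum at 321 and 283 CPM. In B1 and B2, Dcn was at 233 CPM in 132 cells with 3 and 52.3 CPM in 38 cells with 4.
Of the members, Lum kept more of its level than Dcn and Aspn in each of the 6 sets, with 62.4%, 70.0%, 39.9% and 27.8% of its level in A1, A2, B1 and B2. Dcn kept 23.4%, 22.4%, 7.29% and 11.0%, and Aspn 19.9%, 16.9%, 5.91% and 14.7%. Ogn kept 42.4% and 39.5% in A1 and A2 but 7.35% and 5.73% in B1 and B2. Bgn differed by ending, keeping 40.8% and 38.1% in A1 and A2 and 96.2% and 135% in B1 and B2, where its intervals overlapped.
The members were also compared inside the third sets. In A3, Dcn was at 102 CPM in cells with 4 or more Pdgfra UMIs (931 cells) and 576 CPM in the 28 cells with none, and Ogn at 12.2 CPM against 112 CPM. Lum was at 126 CPM against 298 CPM, and Bgn at 221 CPM against 259 CPM, with overlapping intervals. In B3, Dcn was at 49.7 CPM (215 cells) against 180 CPM (626 cells) and Lum at 139 CPM against 292 CPM. Ogn and Aspn had no UMI in those 215 cells, at least 5.39-fold and 4.86-fold lower than in cells with none when 3 counts are taken as the floor. Bgn was at 138 CPM against 139 CPM.

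**Figure D3:**
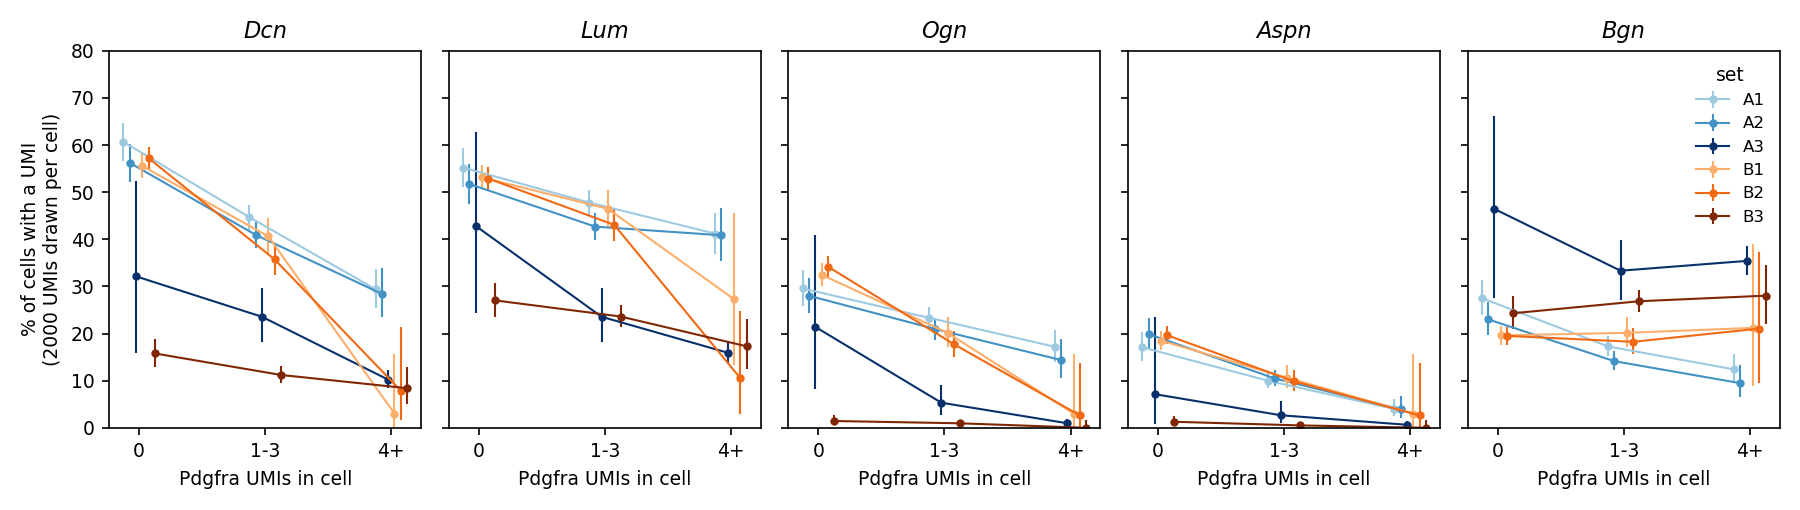
Percent of cells with at least 1 UMI of each gene at 2000 UMIs per cell (vertical axis) by Pdgfra UMIs in the whole cell (horizontal axis), 1 line for each set with 95% Clopper-Pearson intervals. Dcn, Ogn and Aspn are found in fewer cells with 4 or more Pdgfra UMIs than in cells with none in each set, and in B1 Bgn is found in 21.2% and 19.6%.

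Set A3 and sets A1 and A2 also differed among cells with many Pdgfra UMIs. Among cells with 4 or more Pdgfra UMIs, Ogn was at 12.2 CPM in A3 and 106 CPM in A1 and A2, a log2 ratio of -3.13. Dcn was at 102 CPM against 303 CPM, Lum at 126 CPM against 294 CPM and Aspn at 7.31 CPM against 24.8 CPM, while Bgn was at 221 CPM against 60.6 CPM. The level of Pdgfra above the cut was not matched between the sets. In ending B the same cells gave Lum at 139 CPM in B3 and 157 CPM in B1 and B2, and Dcn at 49.7 CPM against 76.5 CPM. Ogn and Aspn had no UMI in the 215 cells of B3, against 20.9 and 13.9 CPM from 6 and 4 UMIs in the 71 cells of B1 and B2. Cells with no Pdgfra UMI still differed in B, with Dcn at 180 CPM in B3 and 826 CPM in B1 and B2, and Ogn at 17.9 CPM against 324 CPM. Those cells also differed in PDGFRA-high markers, which summed to 1961 CPM in B3 and 816 CPM in B1 and B2. Lack of a Pdgfra UMI at this depth does not show that a cell makes no Pdgfra, and the groups were not matched for it.

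Detection of the members in the same cells was counted at matched depth. Both genes of a pair had at least 20 cells in at least 2 sets for 10 of 28 pairs, all among Dcn, Lum, Ogn, Aspn and Bgn. The 6 pairs without Bgn had odds ratios above 1 in every set counted. Dcn and Aspn had the highest value, with a median odds ratio of 10.0 and a range from 5.86 to 19.6. In A1, 93.0% of cells with Aspn also held Dcn, and in B1 82.4% did, while 21.4% and 26.1% of cells with Dcn held Aspn. Ogn and Aspn had a median of 7.87 and Dcn and Ogn 7.50. Medians of the pairs with Lum were lower, at 3.29 with Aspn (2.02 to 5.16), 3.24 with Dcn (2.46 to 4.79) and 3.16 with Ogn (at most 10.4). In the third sets Lum with Ogn had 9.57 in A3 and 10.4 in B3, and Dcn with Ogn had 8.82 and 7.42. These values rest on few cells, 18 and 17 with both Lum and Ogn and 15 and 11 with both Dcn and Ogn. At 3000 UMIs per cell, Lum with Ogn reached at most 5.65 in any set and Dcn with Ogn at most 10.4. All 4 genes were found together in 6.04% of cells in A1, where independent detection would give 0.539%, and in 6.06% of cells in B1, where it would give 1.16%.
The 4 pairs with Bgn had no single direction. In A1 and A2 the odds ratio of Bgn with Dcn was 3.35 and 3.72, whereas it was 0.866, 0.911 and 0.996 in B1, B2 and B3 and 0.685 in A3. The side of 1 depended on depth for this pair, with 2 of 6 sets above 1 here, 4 at 1500 UMIs per cell and 5 unthinned. Bgn with Ogn ranged from 0.441 in A3 to 2.15 in A2. The odds ratio of Ogn and Bgn was above 1 in A1 and A2 and below 1 in the other 4 sets. When only cells without a Pdgfra UMI were counted, the same 6 pairs shared cells. Among cells with 4 or more Pdgfra UMIs, 6 pairs could be counted, and Dcn with Lum, Dcn with Ogn and Lum with Ogn kept ratios above 1.

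**Figure D4:**
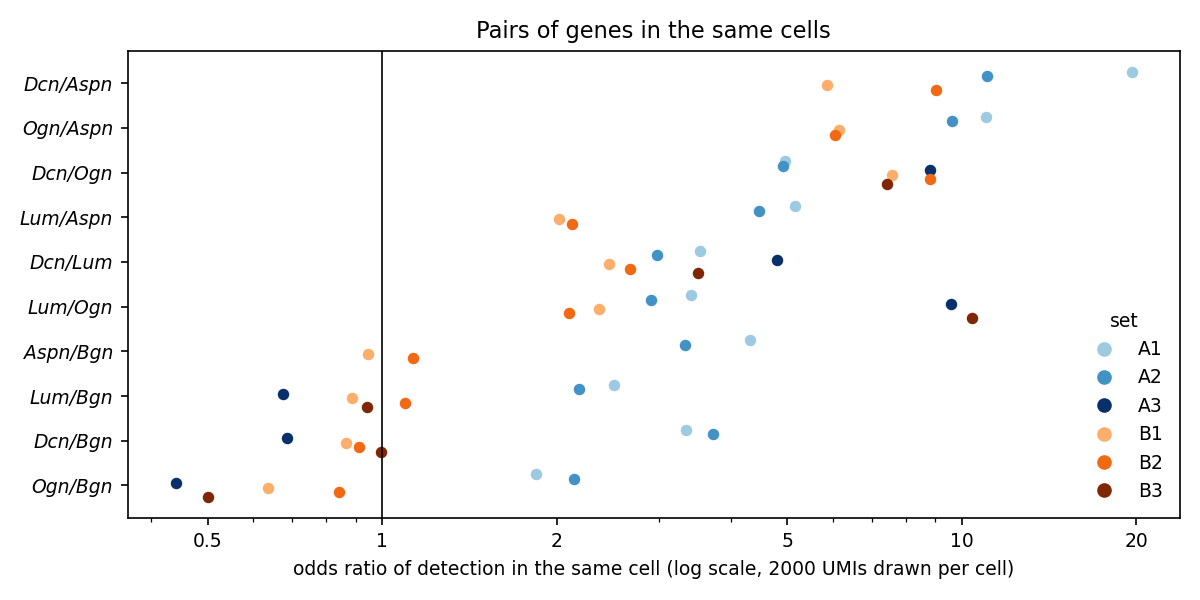
Odds ratio of detection in the same cell (horizontal axis, log scale) for the 10 pairs that could be counted (vertical axis, ordered by their median), 1 point for each set; the line marks 1. The 6 pairs of Dcn, Lum, Ogn and Aspn lie right of the line in every set counted, and the 4 pairs with Bgn lie on both sides.

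The genes most like each member across cells were then ranked. The measure was Pearson's r of log2(1 + UMIs) at 2000 UMIs per cell, averaged over sets. Its points are cells that share a library and its depth, and it is given as a description. For Dcn the nearest were Col1a1 (mean r 0.47), Col3a1 (0.43) and the collagen-binding protein gene Sparc (0.43) over 6 sets. These values differed widely by set, from 0.12 to 0.69 for Col1a1, 0.16 to 0.60 for Col3a1 and 0.06 to 0.67 for Sparc. For Lum they were Dcn (0.32), Col3a1 (0.25) and Mfap4 (0.25). Ogn and Aspn were too rare in A3 and B3, so their values rest on 4 sets. Ogn was nearest to Col3a1 (0.51), Dcn (0.49) and Col1a1 (0.49), and Aspn to Dcn (0.47), Ogn (0.43) and Col1a1 (0.41). For Bgn the nearest were Tmem176b (0.16), Tmem176a (0.14) and Rarres2 (0.14), values too weak to be read as a pattern.

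Cells of each ending were also clustered with the 8 genes left out of the clustering, and 14 clusters of at least 50 cells in A and 10 in B were compared. Clusters are numbered and described by their leading genes, and their levels are a description. Cluster A-8 (305 cells; Dpt, Aspn, Mgp, Vegfd, Sema3d) had the highest level of 4 members in ending A, with Dcn at 5476 CPM, Lum at 1067 CPM, Ogn at 1410 CPM and Aspn at 852 CPM, and 6 of 10 fibroblast markers at least 2-fold above the other cells. Its values came from A1 and A2 alike, with Dcn at 5253 and 5754 CPM, and 1.31% of its cells were in A3. Clusters A-4 (Col6a5, D630033O11Rik, Lepr, Ifi27l2a, Cxcl1) and A-12 (Cdkn2c, Col6a5, Ifi27l2a, Lepr, Lockd) also had much Dcn, at 2740 and 2968 CPM, but less Ogn, at 277 and 180 CPM. In A-0, led by Ogn itself with Maf, Gas1, Tnfrsf11b and Unc5c, Ogn reached 365 CPM with Dcn at 598 CPM. In ending B, cluster B-0 (1332 cells; Ogn, Cxcl13, Lrat, Aspn, Ephb1) was highest in all 4, with Dcn at 1459, Lum at 629, Ogn at 834 and Aspn at 295 CPM. A3 also held few cells of the other 3, with 1.13% of A-4, 0.602% of A-12 and 1.19% of A-0. B3 held 0.976% of B-0 cells. Over all kept cells, A3 held 1185 of 5742 in A, and B3 held 2202 of 6946 in B. How far these shares bear on the set ratios was not tested. Clusters were not matched between endings. The 3 clusters with the most Ogn per UMI held 75.4% of Ogn UMIs in A and 92.0% in B.
Bgn was highest in a cluster other than A-8 or B-0 in each ending. In A it was highest in A-13 (52 cells; Igfbp3, P2rx1, Ifi47, Col18a1, Mmp10), at 1044 CPM, where 2 of 7 smooth muscle markers were 2-fold up and Dcn was at 379 CPM. The Dcn-rich clusters A-4 and A-12 came next in Bgn, at 374 and 352 CPM. Cluster A-1, low in Dcn at 60.4 CPM, had Bgn at 347 CPM, with an interval that overlapped those of A-4 and A-12. The lowest Bgn cluster in A was at 23.9 CPM, a range of 43.7-fold, between the 90.7-fold of Dcn and the 16.5-fold of Lum. In B the highest Bgn cluster was B-9, which came next after B-0 in Dcn, Lum and Aspn. The Bgn intervals of B-9, B-5 and B-2 overlapped. The highest and lowest Bgn clusters of B, at 164 and 84.3 CPM, differed by 1.94-fold, while Lum differed by 13.7-fold and Dcn by 46.1-fold.

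The clusters with the most Pdgfra split by Lum and Dcn in both endings. In A, Pdgfra was at 1267 CPM in A-1 (724 cells; Slco2a1, Npnt, AW112010, Chp2, Il1rl1) and at 1108 CPM in A-11 (206 cells; Opcml, Calb1, F2rl1, Cd38, Cacna2d3), and 93.6% and 87.4% of these cells were in A3. Within A3, Lum was at 272 CPM in A-11 and 66.1 CPM in A-1, a log2 difference of 2.04 [1.81 to 2.27], and Dcn at 191 CPM against 60.5 CPM, a difference of 1.66 [1.40 to 1.92]. Bgn was reversed, at 136 CPM in A-11 against 345 CPM in A-1. Ogn and Aspn were near 0 in both, with 1 Ogn UMI and no Aspn UMI in the 180 A-11 cells of A3.
In B the pair was B-1 (1238 cells; Ramp1, Elovl7, Nrg1, Opcml, Ociad2), with Pdgfra at 386 CPM, and B-2 (944 cells; Npnt, AW112010, Slco2a1, Spock3, Rgs9), with 547 CPM. Lum was at 256, 221 and 284 CPM in the B-1 cells of B1, B2 and B3, and at 50.8, 59.0 and 43.2 CPM in the B-2 cells. Dcn was at 142, 150 and 117 CPM in B-1 and at 47.5, 49.9 and 26.5 CPM in B-2. The interval of the log2 difference lay above 0 for Lum and for Dcn in each of the 3 sets. At 2000 UMIs per cell, Lum was found in 31.3% of B-1 cells of B3 and 6.15% of B-2 cells. Bgn was at 131, 95.1 and 142 CPM in the B-1 cells of B1, B2 and B3 and at 153, 138 and 158 CPM in the B-2 cells, and the interval of its log2 difference excluded 0 in B2 (-0.54 [-1.06 to -0.02]) and included it in B1 and B3. These 4 clusters have the most Pdgfra of their ending and were set side by side after their values had been seen.

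**Figure D5:**
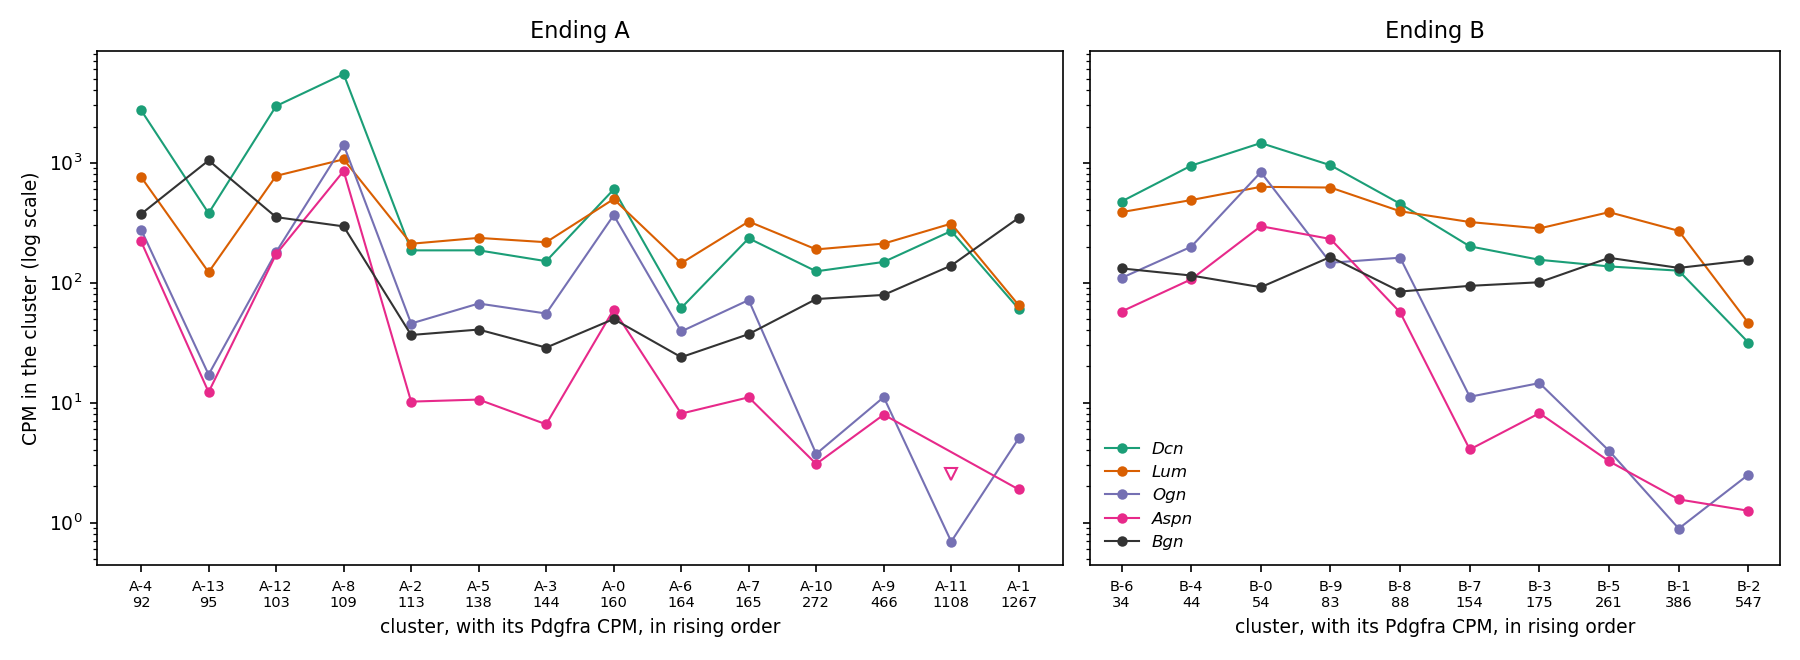
Level of 5 members in CPM (vertical axis, log scale) in each cluster of at least 50 cells (horizontal axis, with the cluster's Pdgfra CPM, in rising order) for ending A (left) and B (right); lines only guide the eye, and the open triangle is the upper 95% limit of a count of 0. Ogn and Aspn drop to 5.03 CPM or less in A-1, A-11, B-1 and B-2, which have the most Pdgfra in A and B. Both genes are also below 5.03 CPM in A-10 and B-5, where Pdgfra is lower, at 272 and 261 CPM. Lum and Dcn separate A-11 from A-1 and B-1 from B-2.

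Free RNA can put UMIs of a gene into cells that do not make it, and transcripts of 5 genes of absorptive cells (Rbp2, 2 apolipoproteins and 2 fatty acid binding proteins) were found in 99.6% to 99.9% of cells in the A sets and 12.8% to 18.2% in the B sets. A planned check in cells with markers of glia or immune cells could not be used, because those cells also held Pdgfra UMIs, in 85.2% of 607 cells with glia markers in A. Clusters chosen because they are low in Ogn show how few Ogn UMIs cells of a set can hold, as a description. At matched depth, 2.22% of 135 A-10 cells in A1 and none of 198 B-1 cells in B2, which allows up to 1.52%, held an Ogn UMI, against 23.6% and 28.6% of all cells in those sets. In A3, none of 179 A-11 cells held one, which allows up to 1.68%. That limit lies inside the interval for all A3 cells, 2.28% [1.51 to 3.31]. Of the 28 A3 cells with no Pdgfra UMI, 21.4% held one. In B3, 0.116% of 864 B-1 cells held one, against 1.00% of all cells. No such clusters were available for Dcn, Lum or Bgn, whose lowest cluster levels were 31.7, 46.1 and 23.9 CPM.

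Some members were found at different shares in cycling cells and the rest, and the difference was not the same in every set. At matched depth Ogn was found in 13.4% of cycling cells and 31.8% of the other cells in A1, and in 21.9% and 31.5% in B1. In the third sets the order was the reverse, with 5.28% and 1.496% in A3 and 3.92% and 0.705% in B3. Those sets had only 246 and 204 cycling cells. Dcn was found in 36.9% of cycling cells and 52.2% of others in A1, but in 54.7% and 48.4% in B1, and in 27.5% and 10.7% in B3. Lum was found in 43.6% and 51.9% in A1, in 23.6% and 16.6% in A3 and in 35.3% and 22.8% in B3, and Bgn in A3 in 22.4% and 38.7%. Aspn was found in 5.43% and 14.5% in A1. In B1 the intervals overlapped for Dcn, Lum (52.7% and 49.9%), Aspn (16.5% and 15.7%) and Bgn (20.3% and 19.5%). In A3 they overlapped for Lum and for Dcn (16.7% and 12.4%). Among cells without a cycling UMI, the ratio of the summed family in set 3 over sets 1 and 2 was more negative than over all cells, at a log2 of -2.20 in A and -1.93 in B against -1.40 and -1.71. The part of cell cycle in these ratios was not tested further.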

How the data were processed

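Cells were captured with the 10x Chromium 3' v3 kit after MULTI-seq labelling, per the labels' protocols. Cell Ranger 2.1.1, Seurat and mm10 are named in the submitters' processing notes, with no step given. The authors deposited 1 matrix of raw UMI counts per gene and cell for all 6 samples, with no map of cells to samples. Cells with at least 1000 genes and at most 5% mitochondrial UMIs were kept, which removed 439. No doublet caller was used. Levels are UMIs summed over cells per 1000000 UMIs (CPM). Shares were taken after drawing 2000 UMIs per cell. A gene entered a ratio with at least 20 CPM in 1 of both sides, and 2-fold was the call. Pairs needed 20 cells per gene in at least 2 sets. Variable genes (2000), 30 components and 15 neighbours gave a graph that leidenalg 0.10.2 partitioned at resolution 1, each ending apart. Intervals came from scipy 1.17.1. Counts cover sampling only, and PCR or embryo variation is not in the intervals. The ratio intervals were run on simulated Poisson counts, the same assumption that they rest on. For set A3 over A1 and A2, with 6606 genes simulated and 200 changed, the interval covered 95.0% of the changed ratios. The simulation held no variation between cells, so it checks the calculation and not the coverage in real cells. All 8 members are named. Of each list the counts and extreme genes are given, and for likeness the 3 nearest genes. The members and lists were chosen with earlier results of these data known. Alternatives changed the cell filter, top cells, weighting, cuts, depth and resolution.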

Additional observations from a re-analysis of the deposited data

How the results depend on the processing

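No paired analysis was possible because the pooled matrix gives no sample to its cells. Alternatives were run for the set and Pdgfra ratios, the pair counts and the share of Ogn UMIs in its leading clusters, and none of these reversed. The cluster contrasts, likeness, cycling shares and free RNA values were run under 1 setting. For the family sum, the log2 ratio of set 3 over sets 1 and 2 was -1.40 in A and -1.71 in B. It became -1.45 and -1.78 without the 2% of cells with the most UMIs, -1.78 and -1.85 as a mean of per-cell CPM, and -0.75 and -0.25 among cells with 4 or more Pdgfra UMIs. Chosen after seeing the data, it became -2.20 and -1.93 among cells with no cycling UMI, and -0.81 and -1.52 among cells with no Pdgfra UMI. Members at least 2-fold lower numbered 4 in A and 2 among A cells with no Pdgfra UMI (28 cells in A3). In B they numbered 3, with 1 among cells with 4 or more Pdgfra UMIs and 5 without a CPM minimum. Lum in B, at -0.97, passed 2-fold at -1.02 without the cells with the most UMIs, -1.11 as a mean of per-cell CPM and -1.09 among cells with no cycling UMI, met it narrowly against B1 alone, and was -0.17 among cells with 4 or more Pdgfra UMIs. For cells with 4 or more Pdgfra UMIs over none, the family ratio in A was -1.54. It was -1.50 without the cells with the most UMIs, -1.68 as a mean of per-cell CPM, -1.39 with a cut at 3 UMIs, -0.93 for the top 10% of Pdgfra counts per UMI (with 2 members 2-fold lower instead of 4), and -1.73 among cells with no cycling UMI. In B it was -2.23, and it became -1.63 with a cut at 3, -1.86 at 6, -1.36 for the top 10% and -2.54 with no cycling UMI. Pairs that share cells numbered 6, but 16 unthinned and 3 among cells with 4 or more Pdgfra UMIs, where 6 could be counted. The 3 leading Ogn clusters held 75.4% of Ogn UMIs in A, 79.7% at resolution 0.5 and 63.0% at 1.5, and 92.0%, 99.6% and 78.4% in B. The cause of these shifts was not tested. Depth limits Fmod, Prelp and Omd, and the 71 cells with 4 or more Pdgfra UMIs in B1 and B2.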
